A study of Mus musculus with 38 samples.

Results

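A set of 7 genes that BMP signalling switches on directly through SMAD proteins was followed across the series, namely Id1, Id2, Id3, Id4, Smad6, Smad7 and Bambi. They were chosen by name, and 7 of 7 were found among the 35976 genes of the bulk time-course table, the 37108 genes of the factor-set table and the 20695 genes of the single-cell table. The cells were mouse embryonic fibroblasts (MEFs) from day 13.5 embryos of Oct4-GFP (OG2) males and 129S4/SvJaeJ females. They were infected with retroviruses over 2 days in medium with serum (FBS) and then kept in iCD3 medium. The iCD3 medium contains vitamin C, mLIF, bFGF, the GSK3 inhibitor CHIR99021, the DOT1L inhibitor SGC0946, an LSD1 inhibitor and Y27632. In the first bulk series, the fibroblasts carried the factor set JGES (Jdp2, Glis1, Esrrb and Sall4) and were collected at day 0 and, with or without 10 ng/ml BMP4, at days 1, 3, 5 and 7. In the second, the cells received JGE (no Sall4), JGEO (JGE plus Oct4), JGESO (JGES plus Oct4) or JGES and were collected at day 7 with or without BMP4. In the third, SALL4 was delivered alone, as the wild-type protein (SALL4-WT) or without its 12 N-terminal residues, through which it recruits the NuRD complex (SALL4-delN12), and cells were collected at days 1, 5, 9 and 11 with no BMP4 added. Single-cell RNA-seq covered JGES cells at day 7 with (11335 cells) and without BMP4 (8685 cells), ATAC-seq covered MEFs and the 8 SALL4 cultures, and CUT&Tag mapped SALL4 and H3K27ac at day 6 of the SALL4 cultures.

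Each condition was 1 library, no test was run and no p-value is given, and a difference between libraries holds the variation between cultures as well as the effect of the condition. Bulk levels are the authors' FPKM (fragments counted per length of exon and per size of library), and a difference is the difference of log2(FPKM + 1), called higher or lower at 1 or more, that is about 2-fold, among genes with at least 1 FPKM in either library. The share of all such genes that passed the same call is given beside each count of the 7 genes. The bulk cultures are mixtures, in which fewer cells of a type and less RNA per cell cannot be told apart. The fibroblast label fitted day 0, where 6 of 6 fibroblast markers reached 1 FPKM (summed level 1394 FPKM) and 5 of 6 pluripotency markers (Nanog, Dppa5a, Zfp42, Utf1 and Tdgf1) were listed at 0, with Sox2 at 5.85 FPKM. The 2 day 7 JGES libraries appear in both tables, rescaled by 0.975 without and 0.978 with BMP4, and were counted once.

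In the GRCm38 (mm10) assembly with GENCODE vM21 genes, Id1 (ENSMUSG00000042745) lies at chr2:152736251-152737410, Id2 (ENSMUSG00000020644) at chr12:25093799-25097140, Id3 (ENSMUSG00000007872) at chr4:136143497-136145755, Id4 (ENSMUSG00000021379) at chr13:48261228-48266026, Smad6 (ENSMUSG00000036867) at chr9:63953076-64022059, Smad7 (ENSMUSG00000025880) at chr18:75367529-75395935 and Bambi (ENSMUSG00000024232) at chr18:3507923-3516404. Id2 and Smad6 are on the minus strand and the other 5 on the plus strand.

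BMP ligands bind serine/threonine kinase receptors, which phosphorylate SMAD1, SMAD5 and SMAD9; these join SMAD4, enter the nucleus and bind GC-rich sites next to short SMAD4 sites. The ID proteins (Id1 to Id4) lack a DNA-binding domain and hold E proteins such as those of Tcf3, Tcf4 and Tcf12 away from DNA, and in mouse pluripotent cells Id genes are known as the BMP arm of self-renewal. Smad6 and Smad7 encode the inhibitory SMADs, of which SMAD6 acts mainly on BMP receptors and SMAD7 on both BMP and TGF-beta receptors, and Bambi encodes a pseudoreceptor without a kinase domain. The last 3 genes are feedback inhibitors of the pathway that induces them.

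Promoter sequences of Id2, Id3, Id4 and Smad6 (4 of the 7) were matched in the RefSeq promoter table (GRCm38.p6, 250 bases before to 50 after the start), and for Smad6, Id4 and Id2 the stretch that holds no annotated exon is shown because a CUT&Tag peak for SALL4 or H3K27ac spans it. The Id2 peak is shown because its score is described below against that of the start-site peak, a choice made after the scores were seen, and it is the middle of the stretch shared by all 9 ATAC-seq lists. The Id2 promoter stretch precedes the RefSeq start and lies inside the longer GENCODE gene, outside its exons, and the upstream peak overlaps no annotated gene. Capitals mark, on either strand, the letters GGCGCC and GGAGCC (GC-rich SMAD1/5-type sites; GGCTCC is GGAGCC read on the other strand) and CAGAC or its reverse GTCTG (SMAD4-type half-site).
Smad6 promoter, chr9:64022086-64022309, minus strand: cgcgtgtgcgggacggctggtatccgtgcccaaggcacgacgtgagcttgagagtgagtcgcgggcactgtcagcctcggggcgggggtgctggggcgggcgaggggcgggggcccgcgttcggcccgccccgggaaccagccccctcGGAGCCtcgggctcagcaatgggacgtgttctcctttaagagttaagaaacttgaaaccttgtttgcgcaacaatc
Id4 promoter, chr13:48260866-48261115, plus strand: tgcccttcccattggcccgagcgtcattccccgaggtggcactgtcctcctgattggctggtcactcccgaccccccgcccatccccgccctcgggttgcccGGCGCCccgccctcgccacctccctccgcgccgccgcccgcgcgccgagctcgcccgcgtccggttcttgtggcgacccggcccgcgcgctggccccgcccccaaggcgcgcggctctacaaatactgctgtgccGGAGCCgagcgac
Id2 promoter, chr12:25096254-25096342, minus strand: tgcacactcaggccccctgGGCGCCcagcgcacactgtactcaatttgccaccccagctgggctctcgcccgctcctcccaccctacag
Id2 upstream peak, chr12:25098660-25098959, minus strand: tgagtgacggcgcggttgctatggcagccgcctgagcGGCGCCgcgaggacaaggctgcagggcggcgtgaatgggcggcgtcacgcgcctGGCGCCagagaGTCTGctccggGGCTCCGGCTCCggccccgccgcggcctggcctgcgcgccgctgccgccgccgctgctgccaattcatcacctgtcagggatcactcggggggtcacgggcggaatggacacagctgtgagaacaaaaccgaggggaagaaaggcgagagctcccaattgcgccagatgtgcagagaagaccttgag

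Over the whole 300-base promoter windows, GGAGCC was present in 4 of the 4 matched genes, against 30.8% of 32851 mouse promoters. GGCGCC was present in Id2 and Id4, against 11.9%, and CAGAC in Id3, against 49.6%. The palindrome GTCTAGAC, made of a pair of SMAD half-sites, was present in Smad6, starting 4 bases before the start site and so outside the stretch shown, against 0.213% of promoters. The letters GGCGCC followed after any 5 bases by GTCTG, an arrangement known from BMP response elements, were in none of the 4 promoters and in 0.0274% of all (9 promoters), but the Id2 upstream peak held 1 match, GGCGCCAGAGAGTCTG at chr12:25098853-25098868 on the minus strand, 1713 bases before the GENCODE 5′ end of Id2. Among 125454 windows of 300 bases at the centres of the MEF ATAC-seq peaks, 0.012% (15 windows) held this arrangement and 6.21% held GGCGCC. The motifs were searched on both strands and were chosen after the sequences were seen. A match describes letters and not a bound site.

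In JGES cells all 7 levels were above those without BMP4 on days 1, 3 and 7, and all but Id2 on day 5. Of the 7, 6 passed the 2-fold call on day 1, 6 on day 3, 5 on day 5 and 6 on day 7, while 3.75%, 6.81%, 8.78% and 10.3% of all genes were called higher on those days. None of the 7 was called lower, against 5.72%, 8.99%, 13.2% and 13.8% of all genes. The median log2 difference of the 7 was 1.89, 1.61, 1.67 and 1.55 on the 4 days, where the median of all genes was -0.02, -0.09, -0.18 and -0.14. Id3 on day 5, at 0.91 under the call, was at 1.08 after the levels with BMP4 were rescaled so that the median ratio of genes with at least 1 FPKM in both libraries was 1. Markers of cell types moved in the same libraries: the pluripotency markers summed to 64.4, 151, 487 and 949 FPKM without and 32.5, 23.2, 19.1 and 42.4 FPKM with BMP4 on the 4 days, and 6 fibroblast markers to 328, 102, 60.1 and 87.6 FPKM without and 399.8, 286, 375 and 723 FPKM with it. On days 5 and 7 the placenta-like list summed to 57.8 and 85.7 FPKM without and 145 and 250 FPKM with BMP4. Keratinocyte markers were 23.0 and 10.0 FPKM without and 126 and 105 FPKM with it. Primitive endoderm markers were 36.8 and 71.8 FPKM without and 23.9 and 156 FPKM with it. The part of these markers in the differences of the 7 genes was not tested.

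**Figure D1:**
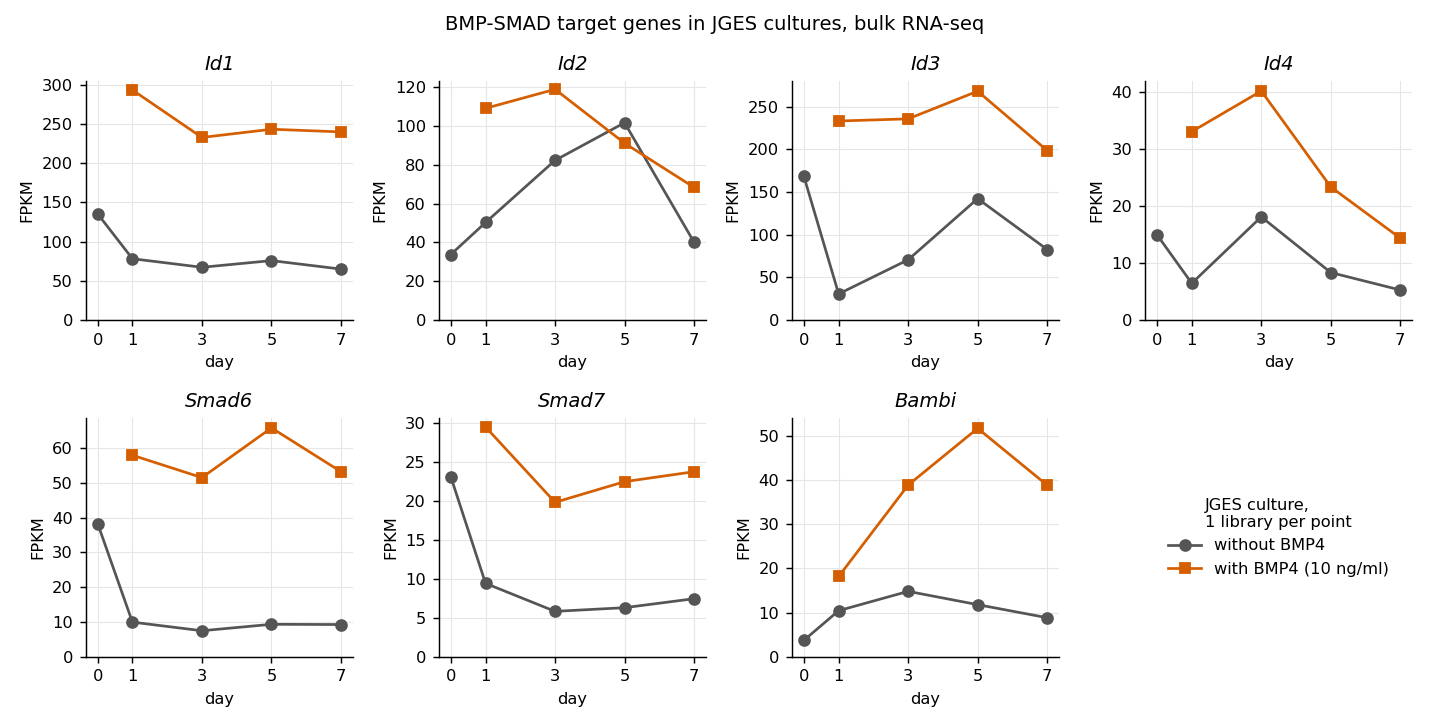
Level of each gene in JGES cultures in FPKM (vertical axis, linear, starting at 0) against day (horizontal axis), without BMP4 in grey and with 10 ng/ml BMP4 in orange, 1 library per point. The BMP4 lines of Id1, Id3, Smad6, Smad7 and Bambi lie above every point without BMP4 from day 1 on, whereas the Id2 lines cross at day 5 and the Id4 level with BMP4 at day 7 (14.4 FPKM) is below that without BMP4 at day 3 (18.1 FPKM).

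Of the ID genes, Id1 had the steadiest difference. Its level was 135 FPKM at day 0, fell to 78.1, 67.3, 75.7 and 65.0 FPKM on days 1, 3, 5 and 7 without BMP4, and was 293, 233, 243 and 240 FPKM with BMP4. The fold was 3.75, 3.46, 3.21 and 3.69. Within the JGES time course, the lowest Id1 level with BMP4 was thus above the day 0 level and above every library without BMP4.

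Id3, the most abundant ID gene at day 0, had the largest difference of the 7 on day 1 and a smaller one afterwards. Its level went from 168 FPKM at day 0 to 30.7 FPKM on day 1 without BMP4 and was 233 FPKM with it, a 7.61-fold difference. Without BMP4 it then came back to 70.7, 142 and 82.8 FPKM on days 3, 5 and 7, while with BMP4 it was 236, 268 and 199 FPKM. The fold was 3.34, 1.89 and 2.4 on those days, so the log2 difference narrowed from 2.89 to 0.91 by day 5 as the level without BMP4 returned.

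Id4 was the lowest of the ID genes. It stood at 15.0 FPKM at day 0, at 6.46, 18.1, 8.34 and 5.28 FPKM without BMP4 and at 33.1, 40.2, 23.4 and 14.4 FPKM with BMP4 (5.12, 2.22, 2.80 and 2.72-fold). It was called higher on all 4 days, but both arms peaked on day 3 and declined to day 7, so the arms overlapped across days.

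Id2 was the exception. It was 33.8 FPKM at day 0 and climbed without BMP4 to 50.3, 82.3 and 102 FPKM on days 1, 3 and 5 before it dropped to 40.1 FPKM on day 7. With BMP4 it was 109, 119, 91.2 and 68.4 FPKM. The log2 difference was 1.10 on day 1, 0.53 on day 3, -0.16 on day 5 and 0.75 on day 7, and only the day 1 value passed the call. After the same rescaling, the day 5 value was 0.01.

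Both inhibitory SMADs were called higher on every day. Smad6 fell from 38.3 FPKM at day 0 to 9.96, 7.49, 9.34 and 9.27 FPKM without BMP4 and was 58.0, 51.5, 65.8 and 53.2 FPKM with it. This was 5.82, 6.88, 7.05 and 5.74-fold, the largest difference of the 7 genes on days 3, 5 and 7. Smad7 fell from 23.1 FPKM to 9.43, 5.84, 6.31 and 7.46 FPKM without BMP4 and was 29.5, 19.8, 22.5 and 23.8 FPKM with it (3.13, 3.40, 3.57 and 3.19-fold). Across the 4 days the log2 difference of Smad7 varied by 0.14, that of Id1 by 0.22 and that of Smad6 by 0.29, against 1.08 for Id4, 1.26 for Id2, 1.3 for Bambi and 1.98 for Id3.

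Bambi responded later. From 3.73 FPKM at day 0 it reached 10.4, 14.8, 11.8 and 8.84 FPKM without BMP4 and 18.2, 38.9, 51.7 and 38.8 FPKM with BMP4. Its fold was 1.74 on day 1, under the call, and then 2.62, 4.38 and 4.39. Bambi and Id2 were the 2 genes of the 7 whose levels without BMP4 stayed above day 0 on every day.

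Taking the 4 days as a set, all 4 levels with BMP4 were above all 4 levels without it for 5 of the 7 genes (Id1, Id3, Smad6, Smad7 and Bambi). The same held for 2.89% of 17047 genes, and 4.97% of genes had all 4 levels below. The 4 days are 1 culture series each and no replicates.

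Against day 0, the inhibitory SMAD genes were lower and Bambi was higher in cells that received no BMP4. The serum medium of the infection was replaced by iCD3 after it. A difference from day 0 can therefore hold the change of medium as well as factors and time, which cannot be told apart. Of the 7, 4, 3, 2 and 5 were called lower on days 1, 3, 5 and 7, against 9.28%, 10.5%, 10% and 10.4% of all genes. Smad6 and Smad7 were among them on every day. Called higher were 1, 2, 2 and 1 of the 7, against 11.8%, 16.4%, 20.2% and 22.2%, and these were Bambi and, on days 3 and 5, Id2. The median of all genes against day 0 was 0.04, 0.17, 0.29 and 0.26, and after rescaling to the median ratio Bambi on day 7 was at 0.89, under the call, while Id1 passed the lower call on days 3 and 5 (-1.13 and -1.05), which made 4 and 3 of the 7 lower (11.8% and 12.2% of all genes).

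The number of the 7 genes past the call differed between the factor sets. With JGE, 5 of the 7 genes were called higher with BMP4 (4.28% of all genes), with JGES 6 (10.2%), with JGEO 0 (2.26%) and with JGESO 1 (5.29%). None was called lower in any set, against 4.78%, 13.7%, 1.95% and 3.52% of all genes. The median log2 difference of the 7 was 1.23, 1.55, -0.15 and 0.30. Both sets with Oct4 therefore had fewer of the 7 past the call than both sets without it, in 1 library per condition.

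**Figure D2:**
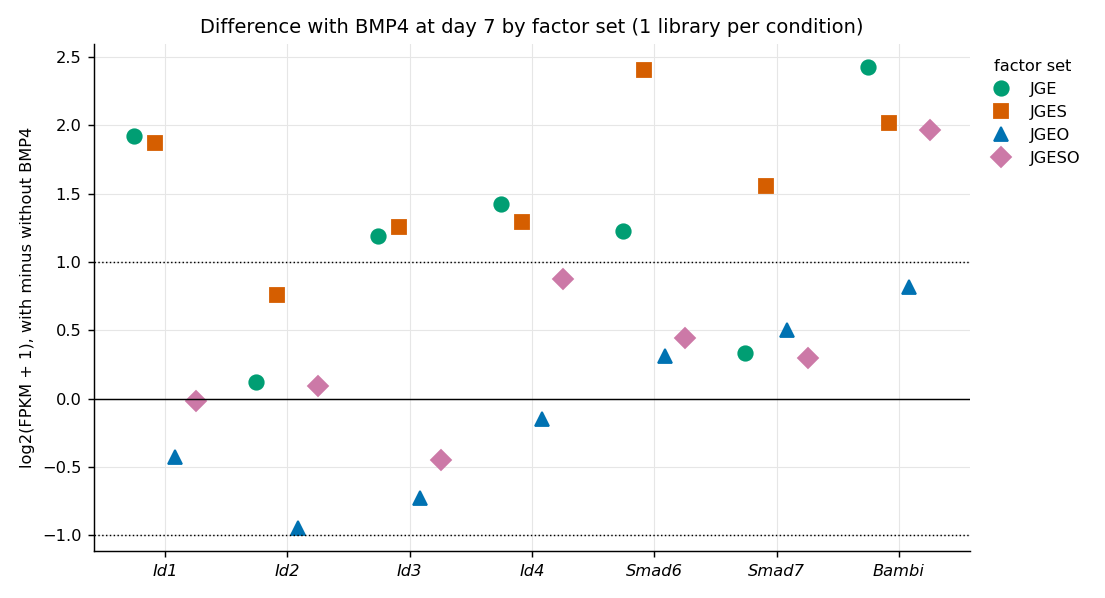
Difference of log2(FPKM + 1) with minus without BMP4 at day 7 (vertical axis) for each gene (horizontal axis) and factor set (symbols), 1 library per condition, with dotted lines at 1 and -1. JGE and JGES points stand above the dotted line for Id1, Id3, Id4, Smad6 and Bambi, whereas Bambi in JGESO (1.97) is the only point of the Oct4 sets above it.

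Id1 went from 48.8 to 188 FPKM with BMP4 in JGE and from 63.3 to 234 FPKM in JGES (1.92 and 1.87 on the log2 scale). It went from 81.1 to 60.1 FPKM in JGEO (-0.43) and from 339 to 334 FPKM in JGESO (-0.02). The JGESO level without BMP4 was thus above the level that BMP4 gave in JGE and JGES.

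Id3 was 175 and 401 FPKM without and with BMP4 in JGE, 80.7 and 194 FPKM in JGES, 285 and 172 FPKM in JGEO and 432 and 316 FPKM in JGESO. It was higher with BMP4 in the first pair of sets (1.19 and 1.26) and lower, within the call, in the sets with Oct4 (-0.73 and -0.45). Id2 was 84.6 and 92.1 FPKM in JGE, 39.1 and 66.9 FPKM in JGES, 105 and 54.1 FPKM in JGEO and 70.5 and 75.3 FPKM in JGESO, so that JGEO gave the lowest Id2 difference (-0.94). Id4 passed the call in JGE (1.43) and JGES (1.29), stood at 0.87 in JGESO and at -0.15 in JGEO.

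Smad6 and Smad7 differed more in JGES than in JGE. Smad6 was 19.8 and 47.6 FPKM in JGE (2.41-fold) and 9.04 and 52.1 FPKM in JGES (5.76-fold). Smad7 was 26.2 and 33.3 FPKM in JGE (1.27-fold) and 7.27 and 23.2 FPKM in JGES (3.20-fold). For both genes the levels with BMP4 were closer to each other than the levels without it, which were higher in JGE. The JGES libraries, which belong to the time course, also had lower macrophage marker levels than the other sets (5.47 and 7.22 FPKM summed, against 52.1 to 173 FPKM in JGE, JGEO and JGESO), and the part of this was not tested. In JGEO and JGESO, Smad6 was 15.2 and 19.1 FPKM, then 36.1 and 49.4 FPKM (0.31 and 0.44 on the log2 scale), and Smad7 differed by 0.50 and 0.30.

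Bambi kept a difference in the most sets. It was 6.50 and 39.2 FPKM in JGE, 8.62 and 38 FPKM in JGES, 4.62 and 8.90 FPKM in JGEO and 5.33 and 23.7 FPKM in JGESO, that is 6.04, 4.41, 1.92 and 4.46-fold. Bambi was the gene of the 7 with the highest difference in JGE, JGEO and JGESO. The cells of the sets also differed: the summed level of 6 pluripotency markers was 14.1 without and 8.71 FPKM with BMP4 in JGE, 925 and 41.4 FPKM in JGES, 333 and 501 FPKM in JGEO and 460 and 278 FPKM in JGESO. In the same order, endothelial markers summed to 26.3, 68.3, 17.3 and 33.6 FPKM without and 123, 69.4, 61.7 and 36.6 FPKM with BMP4. Primitive endoderm markers were 18.9, 70.0, 44.6 and 355 FPKM without and 15.4, 152, 57.9 and 292 FPKM with it. The placenta-like list was 43.1, 83.6, 32.3 and 265 FPKM without and 43.5, 244, 44.3 and 467 FPKM with it. Fibroblast markers were 844, 85.4, 556 and 556 FPKM without and 423, 707, 360 and 917 FPKM with it. Keratinocyte markers were 88.0, 9.75, 16.7 and 38.1 FPKM without and 44.7, 103, 20.7 and 183 FPKM with it. The part of these markers in the differences of the 7 genes was not tested.

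With SALL4 alone and no BMP4 added, the ID genes and Smad6 were lower in SALL4-delN12 than in SALL4-WT cultures. Of the 7 genes, 5 (Id1, Id2, Id3, Id4 and Smad6) were called lower on day 1, the same 5 on days 5 and 9, and none on day 11, against 5.63%, 5.19%, 5.75% and 6.58% of all genes. Called higher was 1 of the 7 on day 1 (Bambi) and none on the later days, against 4.18%, 4.67%, 6.09% and 6.55%. For the same 5 genes all 4 SALL4-WT levels were above all 4 SALL4-delN12 levels, as for 7.44% of 14741 genes, and 5.96% had the opposite order. The order was close for Id3, with 399.4 FPKM in the lowest SALL4-WT and 398.8 FPKM in the highest SALL4-delN12 library, and for Smad6 (16.7 and 16.4 FPKM).

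**Figure D3:**
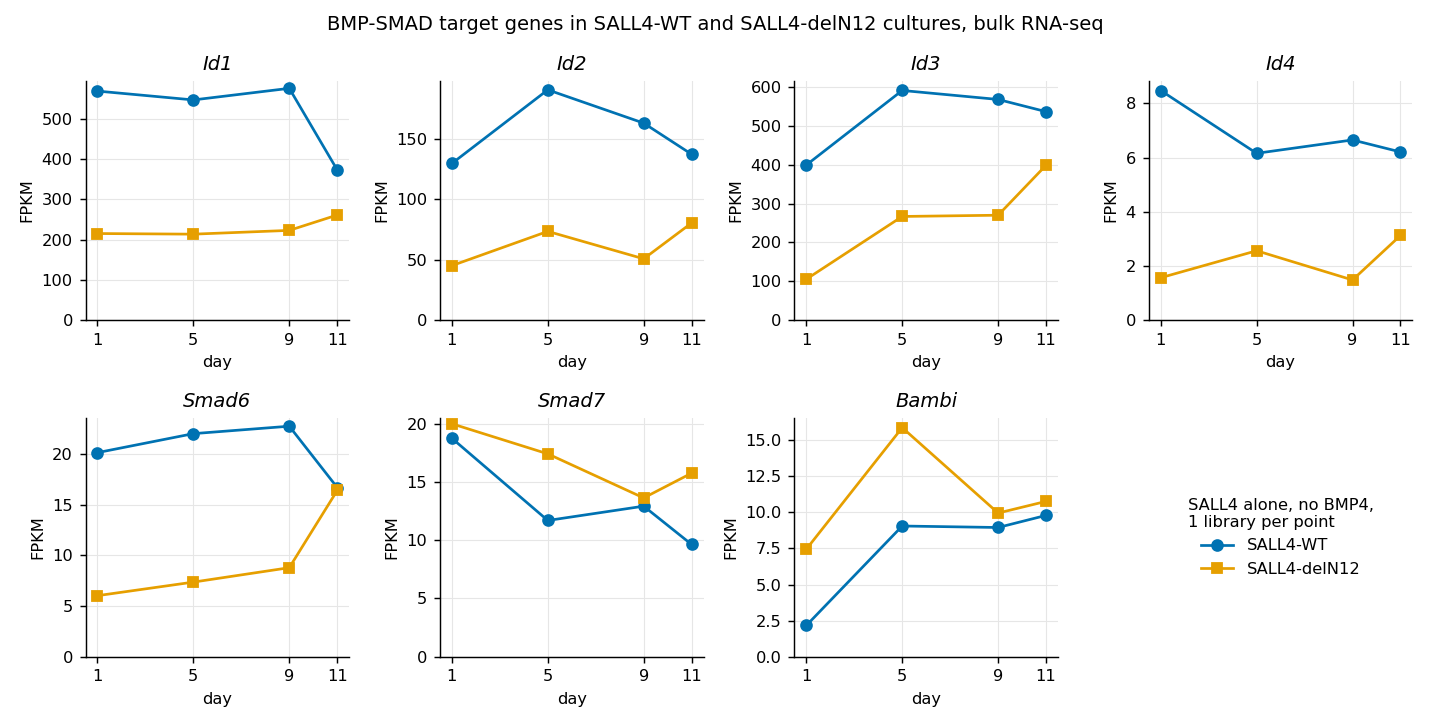
Level of each gene in cultures with SALL4-WT (blue) or SALL4-delN12 (yellow) alone in FPKM (vertical axis, linear, starting at 0) against day (horizontal axis), with no BMP4 and 1 library per point. The SALL4-WT lines of the 4 ID genes lie above the SALL4-delN12 lines throughout, those of Smad6 meet at day 11 (16.7 and 16.4 FPKM), and those of Smad7 and Bambi lie below.

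Id1 was 570, 548, 577 and 374 FPKM on days 1, 5, 9 and 11 with SALL4-WT and 215, 214, 223 and 261 FPKM with SALL4-delN12. Id3 was 399, 591, 568 and 537 FPKM with SALL4-WT and 105, 267, 270 and 399 FPKM with SALL4-delN12. The 4 SALL4-WT libraries held the highest Id1 levels of the 17 libraries of the time-course table, above those of JGES cells with BMP4.

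Id2 was 130, 191, 163 and 137 FPKM with SALL4-WT and 45.1, 73.5, 50.8 and 80.5 FPKM with SALL4-delN12. Id4 was 8.48, 6.16, 6.65 and 6.21 FPKM against 1.56, 2.56, 1.48 and 3.12 FPKM. On the log2 scale Id2 differed by -1.5, -1.36, -1.67 and -0.76 and Id4 by -1.89, -1.01, -1.62 and -0.81. For each of the 4 ID genes the difference on day 11 was the smallest of the 4 days.

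Smad6 was 20.1, 22.0, 22.7 and 16.7 FPKM with SALL4-WT and 6.02, 7.36, 8.78 and 16.4 FPKM with SALL4-delN12, so the log2 difference went from -1.59 on day 1 to -0.02 on day 11. Smad7 did not share this pattern, with 18.7, 11.7, 12.9 and 9.63 FPKM against 20.0, 17.4, 13.6 and 15.7 FPKM. Bambi was 2.17, 9.05, 8.95 and 9.79 FPKM against 7.45, 15.9, 9.95 and 10.8 FPKM, with log2 differences of 1.42, 0.75, 0.14 and 0.12. Of the 2 inhibitory SMADs, both of which were higher with BMP4 in JGES cells on every day, Smad6 thus passed the call here on 3 days and Smad7 on none.

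Among BMP ligand genes, 2 differed more than the 7 genes between these cultures. Bmp2 was 48.1, 57.5, 73.4 and 45.4 FPKM with SALL4-WT and 1.20, 4.19, 4.40 and 3.90 FPKM with SALL4-delN12, while Bmp7 was 3.75, 23.8, 19.2 and 20.4 FPKM against 76.9, 99.0, 128 and 66.0 FPKM. Of the 9 BMP antagonists and modulators, 3, 5, 5 and 3 were called lower in SALL4-delN12 on days 1, 5, 9 and 11 (5.63%, 5.19%, 5.75% and 6.58% of all genes) and none higher. Markers of other cell types also moved: the summed level of the placenta-like list, led by the keratins Krt8 and Krt18, was 109 to 145 FPKM with SALL4-WT and 518 to 660 FPKM with SALL4-delN12, and that of 6 macrophage markers was 157 to 331 and 335 to 998 FPKM. Erythroid markers summed to 0.203, 0.954, 6.75 and 40.8 FPKM with SALL4-WT and 6.44, 206, 333 and 184 FPKM with SALL4-delN12 on the 4 days, and primitive endoderm markers reached 60.3 and 171 FPKM on days 9 and 11 with SALL4-delN12 against at most 19.4 FPKM with SALL4-WT. The 6 fibroblast markers summed to 1015, 1733, 1705 and 1952 FPKM with SALL4-WT and 2290, 2110, 2070 and 1834 FPKM with SALL4-delN12. Keratinocyte markers were 24.0, 17.3, 27.7 and 39.5 FPKM against 23.4, 88.5, 51.8 and 56.3 FPKM. The part of ligands, antagonists and cell types in the differences of the 7 genes was not tested.

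Chromatin was open at all 7 genes. In each of the 9 ATAC-seq lists 7 of 7 had a peak within 2 kb of an annotated start site, as did 61% to 69.1% of 21866 protein-coding genes. SALL4 peaks lay within 2 kb of 5 of the 7 in SALL4-WT (55.2% of genes) and 5 of the 7 in SALL4-delN12 cultures (41.9%). H3K27ac, a mark of active promoters and enhancers, had peaks at 4 of the 7 in SALL4-WT (50%) and 3 of the 7 in SALL4-delN12 (59.4%). The deposited score of a peak rises as its p-value falls, with 50 standing for a p of 1e-05, and grows with sequencing depth, so scores in different lists are given side by side without a comparison.

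Smad6, Id4 and Bambi carried both SALL4 and H3K27ac peaks in both cultures. The SALL4 peak at Smad6 scored 320 in SALL4-WT and 208 in SALL4-delN12, that at Id4 306 and 114, and that at Bambi 182 and 101. The H3K27ac peaks scored 117 and 112 at Smad6, 183 and 404 at Id4, and 204 and 393 at Bambi in the same order. All 4 CUT&Tag lists had 1 peak that spanned the whole Smad6 stretch printed above, and likewise for Id4. Id1 had SALL4 peaks in both cultures and no H3K27ac peak, but the top peaks were different ones. In SALL4-WT it was a broad peak at chr2:152737223-152743952 that begins within the gene (155). In SALL4-delN12 it was one that spans the start site (chr2:152734558-152736759, 130). SALL4-WT also had a further SALL4 peak within 1 kb of the Id1 start, with a score under 100. Within 2 kb, Smad7 had a SALL4 peak in SALL4-WT only (115), and within 5 kb SALL4-delN12 also had one (189.7). Id3, one of the most highly expressed of the 7, had none in any of the 4 lists. The absence of a listed peak does not show absence of binding, since the lists start at a score of 50.

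Id2 had a pair of ATAC-seq peaks, one at its start sites and one upstream, and their order differed between the SALL4 cultures. The upstream peaks of the 9 lists shared chr12:25098570-25099049 (480 bases), 1430 to 1909 bases before the GENCODE 5′ end of the gene, and the stretch printed above is its centre. The start-site peak scored 664 and the upstream peak 404 in MEFs. In SALL4-WT the start-site and upstream scores were 174 and 417 on day 1, 464 and 611 on day 5, 355 and 650 on day 9, and 352 and 550 on day 11. In SALL4-delN12 they were 459 and 270, 310 and 225, 561 and 402, and 353 and 308 on the same days. The upstream peak was the higher in 4 of 4 SALL4-WT lists and the lower in MEFs and 4 of 4 SALL4-delN12 lists, and Id2 RNA was higher in the 4 SALL4-WT cultures. The pair was chosen after its scores were seen, and the share of other genes whose peak pairs show this order was not computed. A link between the peak order and the RNA was not tested. The place of the top Smad6 peak also varied, but did not separate the cultures: it was centred at -684, -54, -132 and -296 bases from the start on days 1, 5, 9 and 11 with SALL4-WT and at -171, 26, -888 and -903 with SALL4-delN12. Around the Id2 pair of peaks, an H3K27ac peak (score 61.7) was listed in SALL4-WT only and a SALL4 peak (69) in SALL4-delN12 only.

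**Figure D4:**
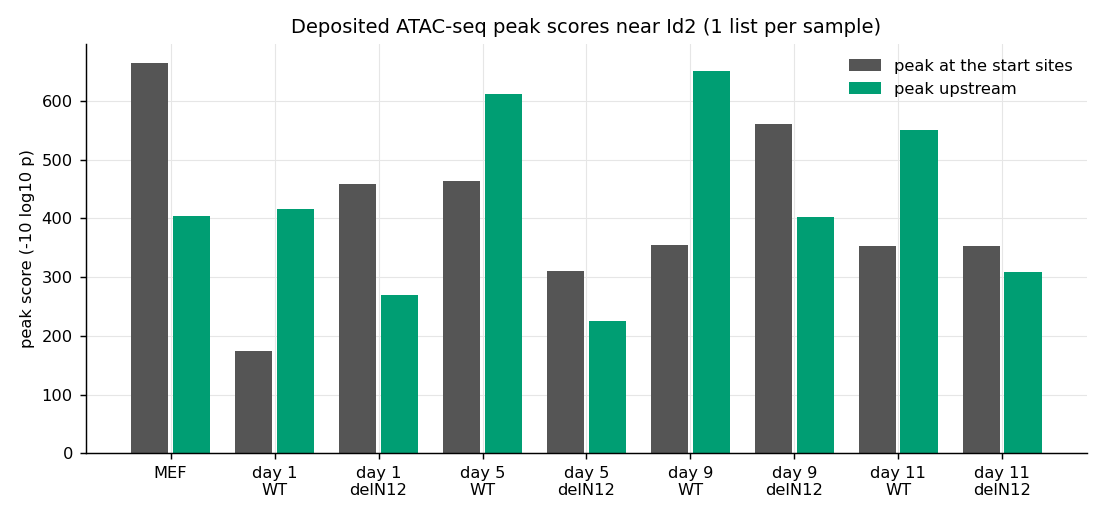
Deposited ATAC-seq peak score (vertical axis, MACS score, starting at 0) of the peak at the Id2 start sites (grey) and of the upstream peak (green) in each of the 9 lists (horizontal axis), 1 list per sample. Green exceeds grey in the 4 SALL4-WT lists (for example 650 and 355 on day 9) and is below it in MEFs and the 4 SALL4-delN12 lists. The pair was chosen after its scores were seen, and no share over other genes was computed.

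The single-cell data show which cells held the day 7 difference. The deposited annotation gave 5 types: intermediate cells (6211 without and 7125 with BMP4), cells labelled ParE, read here as primitive endoderm cell-like cells (PrECLCs; 142 and 2372), endothelial cells (507 and 1453), pluripotent cells (1825, only without BMP4) and placenta-like cells (385, only with BMP4). Of 6 primitive endoderm markers, 6 reached 10 CPM (UMI counts scaled to a common total) in PrECLCs of both samples, with a summed level of 919 CPM without and 1308 CPM with BMP4 against 10.1 to 77.9 CPM in other types. Endothelial markers summed to 517 and 877 CPM in endothelial cells. In the sample without BMP4, 3 types also held markers of other types. Its PrECLCs held 876 CPM of pluripotency markers (23.0 CPM with BMP4). Its endothelial cells held 411 CPM of erythroid globin and related markers (28.2 CPM with BMP4) and 306 CPM of pluripotency markers (4.15 CPM with BMP4). Its intermediate cells held 363 CPM of pluripotency markers against 137 CPM of fibroblast markers. Whether these levels come from mixed labels or from free RNA of other cells was not tested. With BMP4, the intermediate cells held 494 CPM of the placenta-like list and PrECLCs 920.0 CPM (2855 CPM in placenta-like cells), and 2061 of the 7125 intermediate cells scored highest for it. Without BMP4, 2953 of the 6211 intermediate cells scored highest for the pluripotency markers and 1524 for the fibroblast markers of their own label. The part of free RNA in these scores was not tested. The cells with BMP4 were deeper (median 21205 against 12738 UMIs, 4427 against 2783 genes), and 2 barcodes occurred in both samples.

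Levels here are UMIs summed over the cells of a type and given as CPM, and the 95% intervals of folds are Poisson intervals that cover counting error only, since each condition is 1 sample. The median gene was higher with BMP4 by 0.59 (log2 of CPM + 1) over all cells, 0.56 in PrECLCs and 0.52 in endothelial and in intermediate cells. Calls are therefore also given after the levels with BMP4 were rescaled so that the median ratio of genes with at least 10 CPM in both samples was 1.

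Over all cells, 6 of the 7 genes were called higher with BMP4 (28.6% of genes), or 5 after rescaling (12.2%). None was called lower, against 4.29% of genes, or 8.64% after rescaling. Id4 (1.51) lost its call with a pseudocount of 10 CPM (0.88). Smad7 went from 15.5 to 117 CPM (7.52-fold, 7.18 to 7.88) and Smad6 from 6.73 to 45.6 CPM (6.78-fold, 6.32 to 7.28). Bambi went from 65.0 to 269 CPM (4.13-fold) and Id1 from 148 to 550 CPM (3.73-fold). The order of the 7 thus began with the feedback inhibitors and Id1. Id4 went from 6.58 to 20.5 CPM (3.12-fold), Id3 from 328 to 665 CPM (2.03-fold) and Id2 from 176 to 215 CPM (1.22-fold). After rescaling, Id3 was at 0.51 and Id2 at -0.22. In both assays at day 7, before rescaling, Id2 was the 1 gene of the 7 that did not pass the call.

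**Figure D5:**
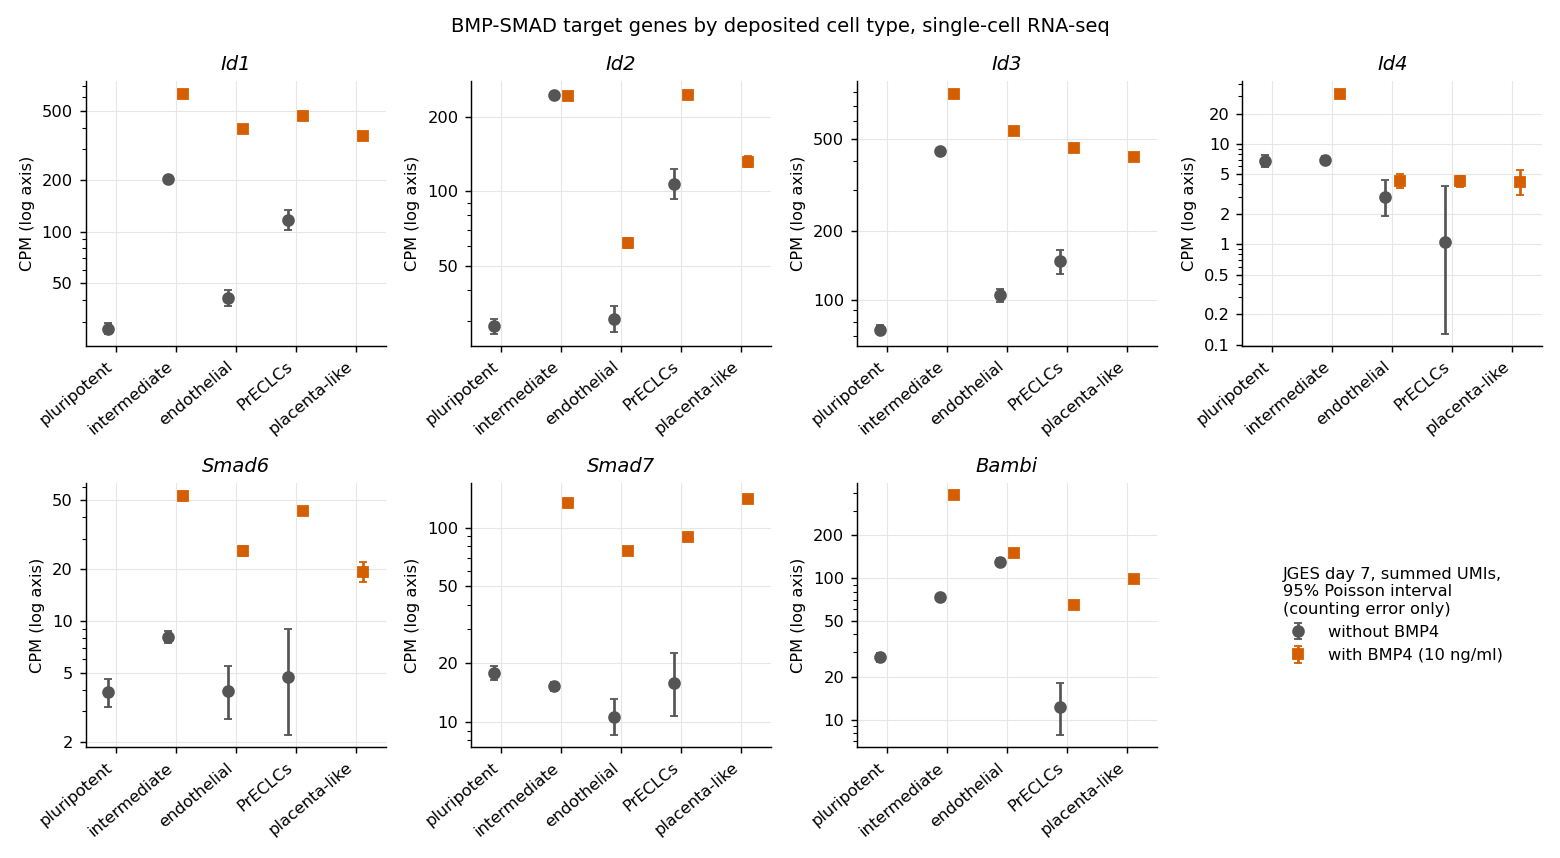
Level of each gene in CPM (vertical axis, logarithmic) in the cells of each deposited type (horizontal axis) without (grey) and with BMP4 (orange) at day 7 of JGES, from summed UMIs of 1 sample per condition, with 95% Poisson intervals that cover counting error only. Pluripotent cells have the lowest Id1 and Id3 levels (27.4 and 74.4 CPM), Smad6 and Smad7 are raised in every type that both samples hold, and Id2 in intermediate cells (245 and 242 CPM) and Bambi in endothelial cells (130 and 150 CPM) are close in both.

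Smad6 and Smad7 were higher with BMP4 in each of the 3 types that both samples held. Smad7 went from 15.9 to 89.4 CPM in PrECLCs, from 10.6 to 75.3 CPM in endothelial cells and from 15.2 to 134 CPM in intermediate cells (5.64, 7.12 and 8.83-fold). Smad6 went from 4.76 to 43.4 CPM, from 3.92 to 25.5 CPM and from 8.08 to 52.8 CPM in the same order (9.11, 6.50 and 6.54-fold). The first of these rested on 9 UMIs without BMP4 (interval 4.79 to 19.9), not told apart from free RNA below, so that it is no exact fold. After rescaling, the log2 differences of both genes were between 1.91 and 2.63 in all 3 types.

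Id1 was also higher in all 3, from 117 to 469 CPM in PrECLCs, from 41.1 to 392 CPM in endothelial cells and from 202 to 629 CPM in intermediate cells. The fold was 4.02, 9.54 (8.57 to 10.6) and 3.12, so that the endothelial fold was the largest under the deposited names. Id3 showed the same order, with 3.12, 5.19 and 1.77-fold (147 to 458, 105 to 543 and 446 to 789 CPM), and in intermediate cells it did not pass the call. After rescaling, the log2 difference in the same order was 1.48, 2.75 and 1.20 for Id1 and 1.12, 1.89 and 0.39 for Id3. With cells named by their highest marker score instead, endothelial Id1 went from 112 to 464 CPM and its log2 difference from 3.22 to 2.04, and that of Id3 went from 2.37 to 1.32. The erythroid marker level of endothelial cells was lower with BMP4, and its part was not tested.

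Under the deposited names, Id2 and Bambi differed by type. Id2 went from 107 to 246 CPM in PrECLCs (2.29-fold) and from 30.5 to 61.8 CPM in endothelial cells (2.02-fold), and was 245 and 242 CPM in intermediate cells (0.988-fold, interval 0.971 to 1.00). Bambi went from 12.2 to 64.6 CPM in PrECLCs (5.31-fold) and from 73.1 to 385 CPM in intermediate cells (5.27-fold), and from 130 to 150 CPM in endothelial cells (1.16-fold, 1.08 to 1.24). Endothelial cells had the highest Bambi level of the types without BMP4. After rescaling, Id2 stood at 0.67 in PrECLCs, where it lost its call, at 0.53 in endothelial and at -0.45 in intermediate cells, and Bambi at 1.81, -0.26 and 1.95. This pattern changed with the naming of cells: by highest marker score the log2 difference of Id2 was 0.10 in intermediate cells, -0.11 in PrECLCs and -0.19 in endothelial cells, and that of Bambi was 2.55, 0.71 and 0.96.

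Id4 was highest in intermediate cells with BMP4. There it went from 7.00 to 31.5 CPM (4.5-fold, 4.13 to 4.91, or 1.61 on the log2 scale after rescaling), whereas it was 2.97 and 4.29 CPM in endothelial cells (1.45-fold, 0.943 to 2.31) and 1.06 and 4.25 CPM in PrECLCs, where it rested on 2 UMIs without BMP4. The Id4 levels of PrECLCs could not be told apart from free RNA, as given below. Placenta-like cells had 4.21 CPM, and pluripotent cells (6.77 CPM) were close to intermediate cells without BMP4. The endothelial difference was not detectable at this depth under the deposited names, and with cells named by marker score Id4 went there from 5.71 to 14.3 CPM (1.19 on the log2 scale).

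By type, 6 of the 7 genes passed the call in PrECLCs (25.9% of genes), where Id4 was below the 10 CPM floor and its difference of 1.35 was 0.37 with a pseudocount of 10 CPM, 4 in endothelial cells (24.2%) and 5 in intermediate cells (27.8%). After rescaling these were 5 (9.78%), 4 (9.05%) and 5 (14.4%). None was called lower in the 3 types, against 3.88%, 3.37% and 4.67% of genes, or 8.54%, 7.8% and 9.36% after rescaling. When PrECLCs were instead assigned by the highest marker score, 3 of the 7 passed the call (32.3% of genes) and Id2 stood at -0.11. In that assignment 444 cells deposited as intermediate joined 123 of the deposited PrECLCs in the sample without BMP4. The 3 were Id1 (1.24), Smad6 (2.16) and Smad7 (2.36).

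Types present in 1 sample only have no pair. Pluripotent cells, without BMP4, had 27.4 CPM of Id1, 28.4 of Id2, 74.4 of Id3, 6.77 of Id4, 3.88 of Smad6, 17.8 of Smad7 and 27.5 CPM of Bambi. Id1 and Id3 were thus lower there than in the other 3 types without BMP4. Placenta-like cells, with BMP4, had 355 CPM of Id1, 132 of Id2, 419 of Id3, 19.3 of Smad6, 141 of Smad7 and 98.1 CPM of Bambi, and their Smad7 level (133.9 to 147.5) was close to that of intermediate cells with BMP4 (132.3 to 135.8).

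The difference was also computed with the cell type shares held fixed. With the 3 shared types weighted as in the sample without BMP4, the fold was 3.23 for Id1, 1.84 for Id3, 4.40 for Id4, 6.57 for Smad6, 8.67 for Smad7 and 4.75 for Bambi. For Id2 it was 1.01. Weighted as in the sample with BMP4, the fold was 3.47 for Id1, 1.17 for Id2, 2.04 for Id3, 4.25 for Id4, 6.92 for Smad6, 7.92 for Smad7 and 4.22 for Bambi. Under both weightings it was above that over all cells for Id4, Smad7 and Bambi and below it for Id1 and Id2.

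The share of cells with at least 1 UMI moved likewise after every cell was thinned to 4000 UMIs, which kept all cells. Id1 was found in 41.7% of intermediate cells without and 76.0% with BMP4 (66.7% and 93.9% without thinning), in 13.0% and 64.1% of endothelial cells (32.5% and 91.3%), in 38.0% and 75.0% of PrECLCs (66.9% and 97.8%) and in 8.93% of pluripotent cells (26.4%). Smad7 was found in 6.01% and 38.5% of intermediate cells (16.9% and 82.5%), Bambi in 22.9% and 63.8% (48.2% and 90.5%) and Id2 in 48.9% and 47.6% (73.1% and 80.0%). The Id2 shares were thus close in intermediate cells once depth was made equal, whereas they were 34.5% and 51.2% in PrECLCs and 8.48% and 17.5% in endothelial cells (59.2% and 88.3%, and 26.6% and 46.5%, without thinning).

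As a measure of free RNA, the endothelial gene Cdh5 was found at 4000 UMIs in 16.0% of endothelial and 0.177% of intermediate cells without BMP4 (median depth 15083 and 11892 UMIs) and in 42.8% and 0.814% with BMP4 (21763 and 19594 UMIs). The pluripotency gene Dppa5a was found in 64.2% of intermediate cells without BMP4, at a mean of 1.10 UMIs, against 98.3% and 24.7 UMIs in pluripotent cells. In endothelial cells and PrECLCs without BMP4 it was 61.1% and 1.06 UMIs, and 70.4% and 3.02 UMIs. In PrECLCs the Cdh5 share was 3.52% without and 2.82% with BMP4, above that of intermediate cells. It therefore gives no level of free RNA for PrECLCs. Smad6 was found in 0.704% of PrECLCs without BMP4 (1 of 142 cells, interval 0.0178% to 3.86%). Whether this was free RNA cannot be told. Id4 was found in 1.41% of PrECLCs without and 1.48% with BMP4, and there too free RNA cannot be told from expression. Cdh5 was rarer over all cells (0.0151 UMIs per cell without BMP4) than Id1 (0.638) or Id2 (0.772), so its share sets no background for those genes.

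Other genes of the pathway were counted by the same call, beside 3.75%, 6.81%, 8.78% and 10.3% of all genes higher and 5.72%, 8.99%, 13.2% and 13.8% lower on days 1, 3, 5 and 7. Of 12 receptors and signal-transducing SMADs, 1, 2, 2 and 2 were called higher with BMP4 in JGES bulk cultures on days 1, 3, 5 and 7 and 0, 0, 0 and 1 lower. The endothelial-type BMP receptor Acvrl1 went from 1.55 to 10.7 FPKM on day 3 and from 1.71 to 9.17 FPKM on day 7. Of 10 further reported BMP targets, 4, 3, 6 and 5 were called higher and none lower. Msx2, a homeobox factor, went from 0.601 to 4.69, 1.28 to 25.9, 2.62 to 39.4 and 4.23 to 47.4 FPKM on the 4 days, and Gata2 and Gata3, which act in haematopoietic and trophoblast cells, were called higher on each day (log2 differences of 1.18, 1.96, 3.72 and 2.83, and of 1.66, 1.70, 2.13 and 1.92). Dlx3 passed on days 5 and 7 (1.31 and 1.56).

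Of 6 BMP ligand genes, 0, 0, 2 and 2 were called higher and 2, 1, 0 and 0 lower, beside the same shares of all genes (3.75% to 10.3% higher and 5.72% to 13.8% lower). Bmp4 itself stayed between 23.8 and 33.5 FPKM in both arms. Bmp2 differed by 1.28 on day 5 and 2.24 on day 7. Of 9 antagonists and modulators 2, 2, 1 and 3 were higher and 0, 0, 1 and 0 lower, and the 3 E-protein genes that ID proteins bind had 1 call in all, Tcf3 on day 7 (62.3 to 29.2 FPKM). Among genes that answer to the TGF-beta and activin branch, Lefty1 and Lefty2, feedback inhibitors of Nodal, were 19.2 and 20.7 FPKM on day 5 without BMP4 and listed at 0 and 0.141 FPKM with it.

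The 7 genes did not form 1 profile across the 17 time-course libraries. Over these libraries, which share cultures and days, Pearson's r of log2(FPKM + 1) was 0.87 between Id1 and Id3 and 0.76 between Id4 and Smad6, but -0.10 between Id1 and Bambi and -0.05 between Id1 and Id4. Among 12351 genes, the profiles most like Id1 were those of Snai1 (0.93), Ecm1 (0.92), Fech (0.90), Wls (0.89) and Tspan31 (0.89). Those most like the mean of the 7 standardized profiles were Smad9 (0.88), Vcam1 (0.82), Fbxo2 (0.81), Jund (0.81) and Dkk1 (0.81). Smad9 is itself one of the SMADs that BMP receptors phosphorylate, and it was 0, 0.113, 0.775 and 0.750 FPKM without and 1.84, 5.15, 4.13 and 2.82 FPKM with BMP4 on days 1, 3, 5 and 7. It was picked for its likeness to the 7 over these same libraries, so its levels are no separate evidence.

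By level, the genes fell into different orders over the 17 libraries. Id1 was highest in the 4 SALL4-WT libraries (374 to 577 FPKM), then in JGES with BMP4 and SALL4-delN12 (214 to 293 FPKM together, in mixed order), then at day 0 (135 FPKM) and lowest in JGES without BMP4 (65.0 to 78.1 FPKM). Smad6 was highest in JGES with BMP4 (51.5 to 65.8 FPKM), then at day 0 (38.3 FPKM), in SALL4-WT (16.7 to 22.7 FPKM), and in SALL4-delN12 and JGES without BMP4 (6.02 to 16.4 FPKM, overlapping). Bambi was highest in JGES with BMP4 (18.2 to 51.7 FPKM), and the other 13 libraries (2.17 to 15.9 FPKM) overlapped by group. With 1 library per condition, neighbours within these groups have no spread to be set against.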

How the data were processed

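The authors trimmed bulk reads with Trim Galore 0.6.4, aligned them to mm10 with HISAT2 2.2.1 and deposited FPKM values from StringTie 2.2.1, as their processing notes state, so the read depth behind a value is unknown and 12030 to 14621 genes per library reached 1 FPKM. Single-cell UMI counts were deposited by the authors as a table of raw counts made with STARsolo, with their cell type names, and 10749 other cell columns of the table were not used. The authors deposited ATAC-seq and CUT&Tag peaks called by MACS 1.4.2 after Bowtie2 2.4.5 alignment, with a peak score, and merged CUT&Tag replicates before calling.

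From these, differences of log2(FPKM + 1), or of log2(CPM + 1) on summed UMIs with a floor of 10 CPM, were computed in Python 3.11.15 with pandas 2.3.3, NumPy 2.4.6 and SciPy 1.17.1, and drawn with Matplotlib 3.10.9. Fold intervals are exact 95% intervals for counts, and the scripts were tested on simulated data. No doublet caller was run. Rescaling set the median ratio of the genes that reached the floor in both libraries to 1. The 7 genes were always reported. List genes were named where they passed the call with at least 5 FPKM in either library on at least 2 of the 4 days, up to 4 per list, with the 5 genes most alike by Pearson's r. Genes named outside this rule (Bmp4 and Tcf3, Smad9 levels, Bmp2 and Bmp7 in the SALL4 cultures) were chosen after their values were seen. A named gene of a list, and the counts of that list, are not reported here. The genes, lists and motifs were chosen with earlier results of these data known. Alternatives were another pseudocount, filter, call, scaling, thinning, peak window, peak score and naming of cells.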

Additional observations from a re-analysis of the deposited data

Results flagged for a closer look

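Differences with BMP4 of opposite sign between conditions, counting only those of at least 0.58 in size in both directions, were found for 4 genes, each from 1 library per condition, and the difference between the conditions was not tested. The share of all genes that change sign by this rule was not computed, so whether 4 is many cannot be told. At 0.58, 19% of all genes were higher with BMP4 in JGES at day 7 and 5.54% were lower in JGEO. Id2 differed by 0.76 in JGES and by -0.94 in JGEO cultures at day 7 on the log2 scale. Id3 differed by 1.19 in JGE and 1.26 in JGES, and by -0.73 in JGEO. Among the pathway genes in JGES cells, the ligand gene Bmp7 differed by -1.90 on day 1, -1.07 on day 3, 1.03 on day 5 and 0.61 on day 7. Pmepa1, which encodes an inhibitor of TGF-beta signalling, differed by -0.62 on day 1, -1.29 on day 3 and 1.31 on day 7.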

How the results depend on the processing

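Of 644 values recomputed under another setting, 578 were labelled unchanged, 65 moved and 1 reversed. Among 385 of these for the 7 genes singly, 366 were labelled unchanged. A value that crossed 0 or the call by a small amount could still be labelled unchanged. After rescaling 1 value was labelled moved, although over all cells Id2 went from 0.28 to -0.22 and Id3 from 1.02 to 0.51. With cells named by marker scores, endothelial Id2 went from 0.99 to -0.19. With a call at 0.58, the number of the 7 genes called higher was 1 in JGEO (9.29% of all genes), 2 in JGESO (15%), 1 on day 5 (10.3%) and 1 on day 11 (15.7%) of the SALL4 cultures, and 2 were lower on day 11 (15.5%). In JGEO 2 of the 7 (5.54%) were then also past the call on the lower side (Id2 at -0.94 and Id3 at -0.73). Scaled to the median ratio, 0 of the 7 were higher on day 7 without BMP4 against day 0. With cells named by marker scores, 3 of the 7 were higher in PrECLCs and Id2 there reversed to -0.11; the cause was not tested. A model of day plus treatment over the day-matched libraries was not run. Read depth is unknown for the bulk values, the single-cell intervals cover counting error only, and 142 PrECLCs without BMP4 limit the values of the lower genes there.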
